A study of Arabidopsis thaliana with 6 samples.

Results

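The mitochondrion-encoded transcripts described here are those of the 31 probe sets numbered 244901 to 244931, of 22810 on the Affymetrix ATH1 array of Arabidopsis thaliana. This run of numbers does not hold every mitochondrial gene on the array, and 16 further probe sets named for such genes are given separately. The gene table of the platform named 10 of them. It gave 7 as mitochondrial genes, namely nad4L, nad7 and nad4 (subunits of complex I), ccb382 and ccb203 (cytochrome c maturation), matR (a maturase of group II introns) and orfX (a protein translocase of the twin-arginine type). The names of these 7 all matched mitochondrial protein genes of the RefSeq table (assembly TAIR10.1), and along that genome they lie in the reverse order of their probe set numbers. The table gave 3 others (AT2G07751, AT2G07674 and AT2G07776) as loci of nuclear chromosome 2, and the remaining 21 are not named there and are called by their probe set IDs. The nuclear genome of this species carries a large copy of mitochondrial DNA on chromosome 2, so signal from the organelle and from that copy cannot be told apart in the probe sets that match both. Of the 31, 8 carry the suffix _s_at, which marks a probe set that matches more than 1 transcript.

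Total RNA came from whole plants grown on soil, with the roots rinsed, on 3 wild-type arrays and 3 arrays of rli, a T-DNA insertion mutant of the RNase L inhibitor RLI, an ABC protein of ribosome recycling. The series asks how RLI bears on RNA stability. All wild-type samples are labelled as developmental stage 3.20 weeks and all rli samples as 1.14 weeks, so genotype and labelled stage cannot be told apart here. All 6 samples share the source name Co-1 and the stock code N1084, which do not say whether mutant and wild type have the same background, and the labels do not give the RLI locus that carries the insertion. No probe set was named for an RLI locus, so the genotype was not checked. Nothing in the labels says whether replicates were separate plants, pools or repeat preparations, so the p-values refer to the scatter of these 6 arrays, part or all of which may be technical. Of the organ markers, RCA, the Rubisco activase of green tissue, read 12.56 ± 0.09 in wild type and 12.17 ± 0.24 in rli (log2 intensity, mean ± SD, n = 3), and PYK10, a root beta-glucosidase, 9.99 ± 0.22 and 10.20 ± 0.11. Of the 4 listed root markers 2 others had a probe set, both with a mean below the filter level of the test, AT5G17820 at 2.10 to 5.05 in wild type and 2.87 to 15.8 in rli (intensity) and AT3G01190 at 9.33 to 60.6 and 9.16 to 28.05. No flower or pollen marker had a named probe set.

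Plant mitochondria keep a small genome for part of the respiratory chain, the ATP synthase, cytochrome c maturation and the organelle's ribosome, while nuclear genes supply most subunits. Many of the transcripts are spliced, edited at single bases and trimmed before use. In plant mitochondria a poly(A) tail marks an RNA for decay rather than protecting it, and a 3' labelling kit of the type named in the labels starts from poly(A). The tailed share of these transcripts was not measured.

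The values are MAS5 intensities, a linear brightness scaled by the authors to a common mean on each array, and differences are rli minus wild type on the log2 scale. The test took in the probe sets with an average log2 intensity of at least 4.63, the 40th percentile, which is 24.7 on the linear scale. Intensities are listed in the order of replicates 1, 2 and 3. Of the 31 mitochondrion-encoded probe sets 12 reached it and 19 did not. On either side of this limit stood AT2G07674 at 4.62 and 244923_s_at at 4.63.

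In the test over all 6 arrays 0 of the 12 passed (limma with Benjamini-Hochberg adjustment over 13648 probe sets, adjusted p from 0.070 to 0.898), while 4.27% of all tested probe sets rose in rli and 2.53% fell. With an unadjusted p below 0.05 there were 4 of the 12 (244901_at, 244903_at, 244906_at and nad4), against 21.1% of all tested probe sets. The mean was higher in rli for 25 of the 31 and lower for 6, where 55.9% of all probe sets were higher. The median difference over the 31 was 0.76, against 0.09 over all 22746 probe sets that are not controls and 0.15 over the 69 named plastid-encoded ones. After quantile normalization, 18 were higher and 13 lower, where 49.0% of all probe sets were higher. The median was then 0.28, against -0.01 over all probe sets and 0.35 over the plastid-encoded ones, so the order of the 2 organelles turned with the scaling.

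The wild-type arrays stood apart from each other. The median intensity of the 31 probe sets was 8.37, 6.97 and 52.7 in wild type, and 30.9, 11.2 and 32.0 in rli. Wild-type replicate 3 was the highest of the wild-type arrays in 28 of the 31 probe sets (55.4% of all probe sets) and the highest of all 6 arrays in 19 (38.6% of all). In the median probe set it stood 6.79-fold above the geometric mean of the other wild-type arrays, against 1.28-fold over all probe sets. The 31 were dimmer than most, with medians at percentiles 26.1 and 23.3 of wild-type replicates 1 and 2. The lower quartile of all probe sets also rose on replicate 3, at 7.75, 8.06 and 26.1 in wild type. The comparisons with all probe sets were not matched for intensity. After quantile normalization wild-type replicate 3 was still the highest wild-type array in 25 of the 31, and 3.09-fold above the others in the median. Within rli, replicate 2 was the lowest array in 24 of the 31 (47.0% of all). The median SD between arrays was 1.82 in wild type and 0.88 in rli on the log2 scale, against 0.54 and 0.39 over all probe sets.

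**Figure D1:**
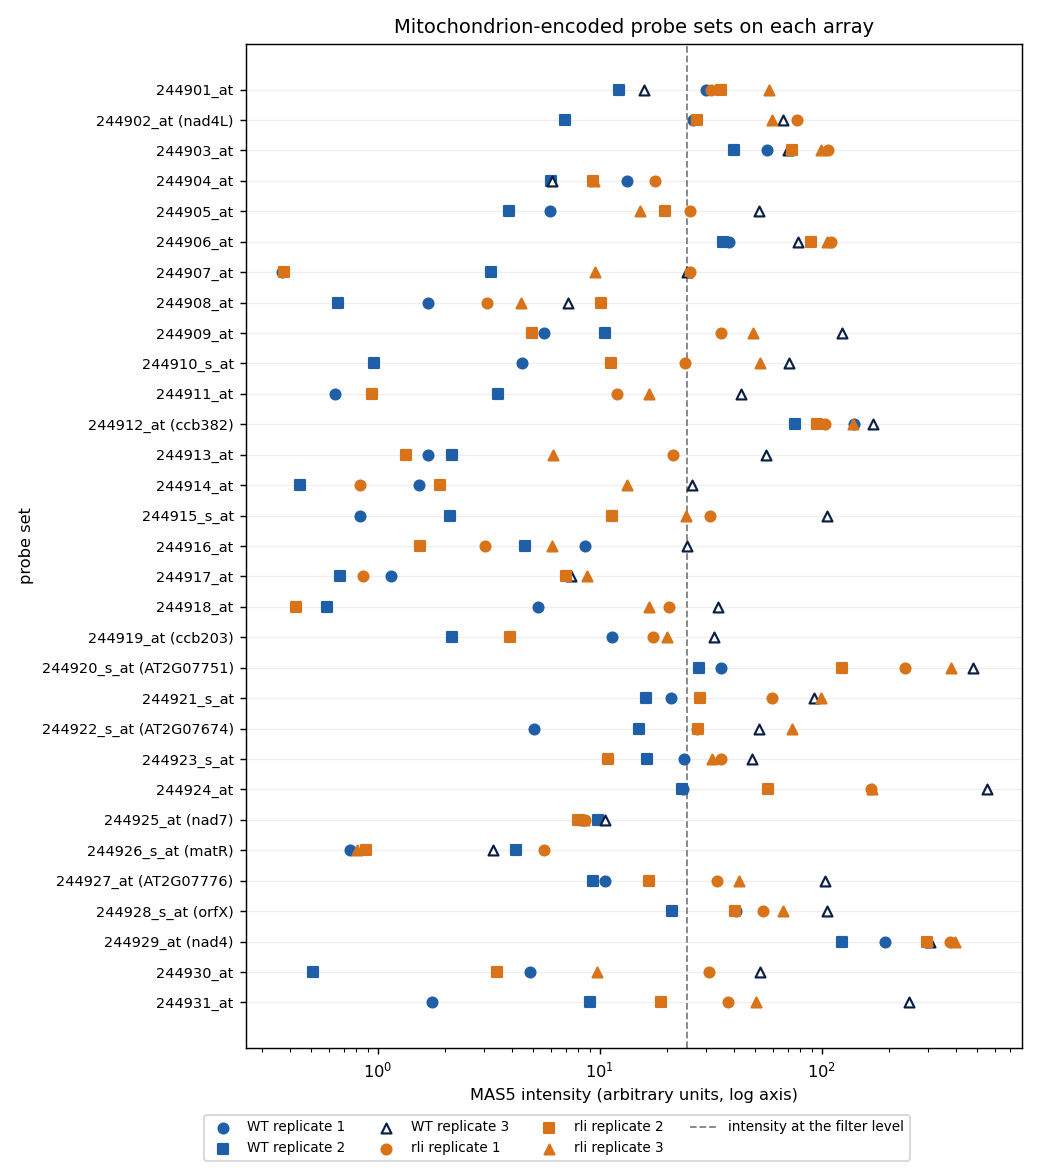
MAS5 intensity (log axis) of each of the 31 mitochondrion-encoded probe sets on the 6 arrays, with wild type in blue (replicate 3 as open triangles), rli in orange and the filter level of 24.7 as a dashed line. Wild-type replicate 3 lies farthest to the right in 19 of the 31.

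Among the complex I subunits, which pass electrons from NADH to ubiquinone, nad4 read 192, 123 and 306 in wild type and 377, 298 and 397 in rli. All rli arrays were above wild-type replicates 1 and 2, as in 15 of the 31 and in 26.2% of all probe sets. The lowest rli array, replicate 2, lay just under wild-type replicate 3, so the groups overlapped. The difference of nad4 was 0.87 ± 0.31 (± standard error from limma, n = 3 per group; limma adjusted p = 0.135). The small membrane subunit nad4L read 26.3, 6.97 and 66.5 in wild type and 77.4, 27.3 and 59.3 in rli, with overlapping groups and a difference of 1.12 ± 0.75 (adjusted p = 0.448). Nad7, of the arm that reaches into the matrix, was dim and even on all arrays, at 8.37, 9.76 and 10.6 in wild type and 8.55, 7.97 and 8.51 in rli. Nad7 was below the filter and was not raised on wild-type replicate 3 as most of the others were, at 1.17-fold the geometric mean of the other wild-type arrays.

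Of the cytochrome c maturation proteins, which attach heme to the c-type cytochromes, ccb382 read 139, 75.3 and 170.0 in wild type and 104, 95.1 and 138 in rli. The rli arrays all lay within the range of the wild-type arrays, with a difference of -0.13 ± 0.31 (limma adjusted p = 0.863), the direction of which was positive, at 0.11, without wild-type replicate 3. The other, ccb203, lay below the filter, at 11.3, 2.15 and 32.5 in wild type and 17.3, 3.93 and 19.98 in rli. The translocase gene orfX read 40.9, 21.2 and 104.9 in wild type and 54.5, 40.6 and 66.6 in rli, a difference of 0.23 ± 0.51 (adjusted p = 0.852). The maturase gene matR, read by 1 probe set with the suffix _s_at, had the lowest mean of the 31, at 0.745, 4.20 and 3.29 in wild type and 5.58, 0.884 and 0.806 in rli, all below the filter level and overlapping between groups.

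Among the unnamed probe sets, all rli arrays were above all wild-type arrays in 3, which makes 3 of the 31 against 11.3% of all probe sets. Probe set 244906_at read 38.0, 35.8 and 77.8 in wild type and 110.1, 89.4 and 104.9 in rli, with a difference of 1.09 ± 0.31 (limma adjusted p = 0.070), the smallest adjusted p of the 12. Probe set 244903_at read 56.5, 40.1 and 70.5 in wild type and 107, 73.2 and 98.5 in rli (0.76 ± 0.27, adjusted p = 0.145). In both, wild-type replicate 3 was the array nearest to the rli values. Probe set 244901_at read 30.04, 12.2 and 15.9 in wild type and 31.7, 35.0 and 57.6 in rli (1.15 ± 0.51, adjusted p = 0.229), with wild-type replicate 1 just under the lowest rli array and wild-type replicate 3 not raised.

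AT2G07751, a chromosome 2 locus by the table, read 35.2, 28.1 and 479 in wild type and 236, 123 and 383 in rli, so that rli lay between the wild-type arrays and the difference of 1.52 had a standard error of 0.91 (limma adjusted p = 0.392). Probe set 244924_at read 23.6, 23.4 and 555 in wild type and 166, 57.4 and 167 in rli (0.79 ± 1.05, adjusted p = 0.738). In both, wild-type replicate 3 was above every rli array, and every rli array was above the other wild-type arrays, an order found in 7 of the 31 probe sets, in 53 of the 69 plastid-encoded ones and in 9.87% of all. The differences of the other 3 tested probe sets were 0.81 ± 0.67 for 244921_s_at, 0.41 ± 0.89 for AT2G07776 and -0.21 ± 0.63 for 244923_s_at. The spread between arrays was wider in wild type than in rli for the first 2, and wider in rli for 244923_s_at (SD 0.79 in wild type and 0.94 in rli).

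The 19 probe sets below the filter ranged from 0.37 to 15.003 on wild-type replicates 1 and 2 and reached 246 on wild-type replicate 3. Their highest values in rli were 37.8, 27.8 and 73.0 on replicates 1 to 3. Probe set 244931_at was the brightest of them on wild-type replicate 3, at 246, and stood at 1.75 and 9.04 in wild-type replicates 1 and 2 and at 37.8, 18.8 and 50.2 in rli. AT2G07674, just under the filter, read 5.05, 15.003 and 52.1 in wild type and 27.2, 27.8 and 73.0 in rli. Probe set 244910_s_at had the largest difference of the 19, 1.85, at 4.46, 0.957 and 71.2 in wild type and 24.3, 11.2 and 52.3 in rli. In these 3, every rli array was above wild-type replicates 1 and 2, and every one except rli replicate 3 of AT2G07674 was below wild-type replicate 3. Every rli array was above wild-type replicates 1 and 2 in 15 of the 31, against 26.2% of all probe sets. Probe set 244915_s_at read 0.83, 2.12 and 105 in wild type and 31.2, 11.3 and 24.5 in rli. Probe set 244916_at was the 1 of the 19 with the mean of rli lowest against wild type, at -1.69, from 8.57, 4.60 and 24.5 to 3.04, 1.55 and 6.08. With all 31 in the fit without a filter, where 2.15% of all probe sets rose and 1.18% fell, 0 passed, 3 of the 31 had an unadjusted p below 0.05 (13.8% of all probe sets), and limma's lowest adjusted p was 0.118. The standard errors of the 19 were then 0.83 to 1.95 on the log2 scale, with a median of 1.42, and their differences ranged from -1.69 to 1.85.

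Leaving out wild-type replicate 3 changed these calls. Then 6 of the 12 tested probe sets rose in rli and 0 fell, where 8.72% of all tested probe sets rose and 6.56% fell. They were AT2G07751 (2.83 ± 0.37, limma adjusted p = 0.00038), 244924_at (2.31 ± 0.40), 244921_s_at (1.59 ± 0.47), 244906_at (1.45 ± 0.23), nad4 (1.203 ± 0.22, adjusted p = 0.0032) and 244903_at (0.95 ± 0.26), with nad4L next (1.89 ± 0.59, adjusted p = 0.051). With all 31 in the fit, a setting chosen after seeing the data, 8 rose, where 5.87% of all probe sets rose and 3.56% fell, among them the dim 244910_s_at, 244915_s_at and 244931_at. The median over the 31 was 1.58 without that array, against 0.19 over all probe sets. Without wild-type replicate 1 or 2 the median was 0.41 and 0.16, and 0 of the 12 passed when any 1 of the other 5 arrays was left out. With the replicate number as a block, 2 of the 12 rose, 244906_at and nad4 (limma adjusted p = 0.032 and 0.034), where 5.86% of all tested probe sets rose and 3.66% fell, and with array weights 8 rose, where 12.6% rose and 10.7% fell.

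**Figure D2:**
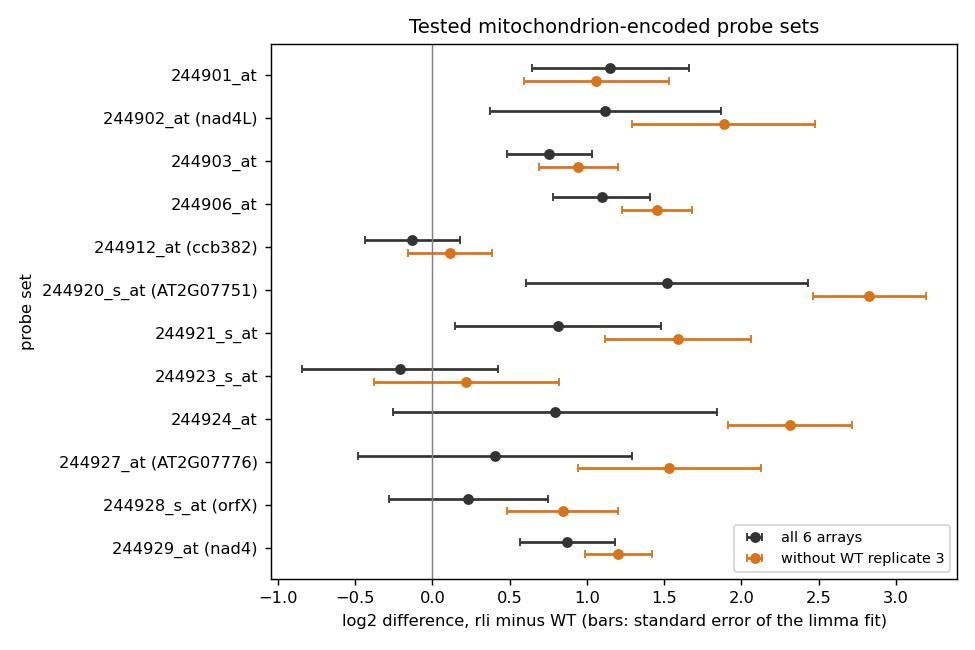
Log2 differences, rli minus wild type, of the 12 tested mitochondrion-encoded probe sets with their limma standard errors, over all 6 arrays (black) and without wild-type replicate 3 (orange). Without that array 11 of the 12 points lie farther to the right, with 244901_at as the exception, and AT2G07751 moves from 1.52 to 2.83.

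Plastid-encoded probe sets followed the same order of arrays with other probes. Their median intensity was 878, 702 and 4962 in wild type and 1901, 1167 and 2244 in rli. Over all arrays 0 of the 69 passed, where 4.27% of all tested probe sets rose and 2.53% fell. Without wild-type replicate 3, 40 rose and 0 fell, where 8.72% of all tested probe sets rose and 6.56% fell. The difference between mitochondrial and plastid medians was 0.60 over all arrays, 0.76 without wild-type replicate 3 and -0.07 after quantile normalization, and it is given as a description only.

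Readings outside the organelles were also highest on wild-type replicate 3. The nuclear-encoded 25S ribosomal RNA read 285, 344 and 1927 in wild type and 1319, 1048 and 863 in rli, and the 5S ribosomal RNA 197, 38.2 and 2513 in wild type and 844, 421 and 992 in rli. The mean log2 ratio of the 3' to the 5' end over 6 control pairs was 2.11, 2.40 and 2.83 in wild type and 2.65, 2.39 and 2.68 in rli. The lower quartile of all probe sets was 7.75, 8.06 and 26.1 in wild type and 16.5, 9.97 and 18.1 in rli. The part of these readings in the mitochondrial values was not tested. A change in the number of mitochondria and a change in RNA per mitochondrion cannot be told apart in whole plants.

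**Figure D3:**
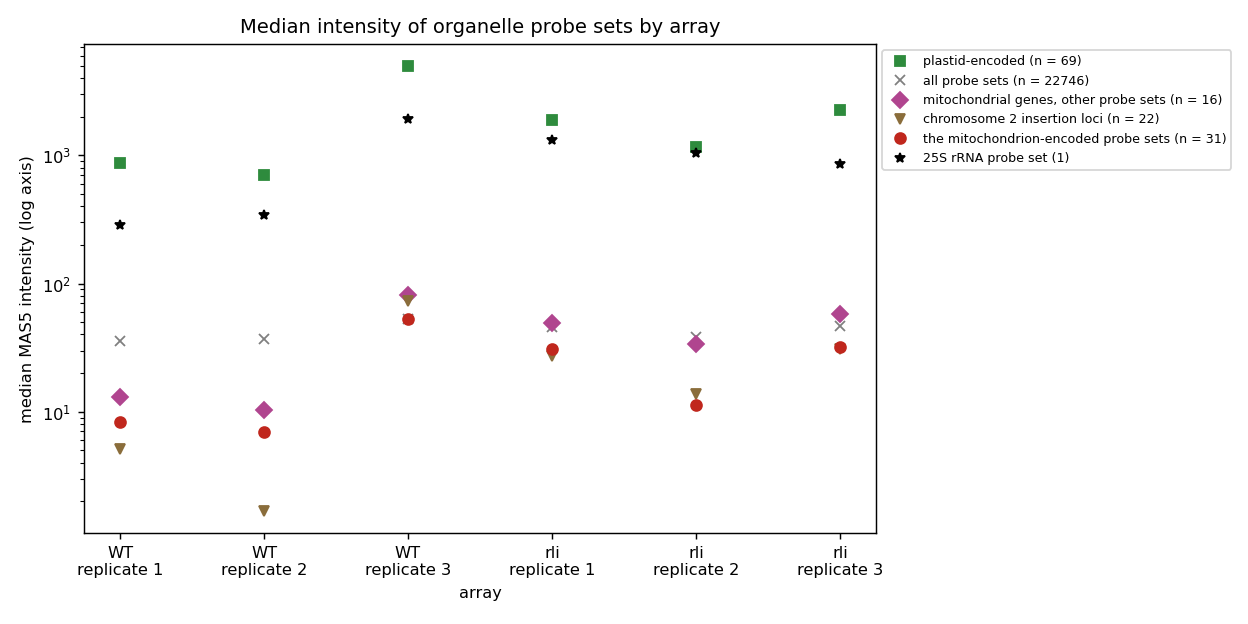
Median MAS5 intensity (log axis) on each array of the 31 mitochondrion-encoded probe sets (red circles), other probe sets of mitochondrial genes, loci of the chromosome 2 insertion, plastid-encoded probe sets and all probe sets, with the 25S ribosomal RNA probe set. All sets have their highest median on wild-type replicate 3, at 52.7 for the mitochondrion-encoded and 4962 for the plastid-encoded probe sets.

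Elsewhere on the array 16 probe sets were named for 9 mitochondrial genes, and these were not part of the chosen numbers. Their median intensity was 12.9, 10.3 and 81.2 in wild type and 49.6, 34.0 and 58.0 in rli. All 16 had a higher mean in rli, from 0.11 to 3.87, and 15 of 16 did after quantile normalization. Over all probe sets the shares with a higher mean were 55.9% and 49.0%. Of 9 tested, 0 passed over all arrays, where 4.27% of all tested probe sets rose and 2.53% fell. Without wild-type replicate 3, 7 rose and 0 fell, where 8.72% of all tested probe sets rose and 6.56% fell. Complex I subunit nad9 read 17.0, 24.7 and 76.9 in wild type and 75.7, 40.2 and 80.3 in rli, and nad6 22.1, 19.0 and 285 in wild type and 118, 42.7 and 97.0 in rli. Of the cytochrome c oxidase subunits, which pass electrons to oxygen, cox1 read 168, 91.4 and 339 in wild type and 258, 142 and 274 in rli, and cox2 31.6, 28.6 and 37.2 in wild type and 59.5, 33.2 and 39.5 in rli. All 4 had overlapping groups.

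The subunit nad1 was read by 7 probe sets, which share 1 gene and are not independent. All 7 had a higher mean in rli, but by 0.11 to 3.87. Wild-type replicate 3 stood 1.48 to 19.8-fold above the geometric mean of the other wild-type arrays, and was the highest of the wild-type arrays in 5 of the 7. The largest difference was that of 257322_at, at 0.45, 11.2 and 6.26 in wild type and 40.2, 36.1 and 68.4 in rli, with separate groups and a wild-type mean well below the filter level. It was not in the reported test, and the fit without a filter gave 3.87 ± 1.19 (limma adjusted p = 0.128). All rli arrays were above all wild-type arrays in 2 of the 16 probe sets, against 11.3% of all probe sets. Probe set 257329_at, also of nad1, read 5.83, 7.11 and 128 in wild type and 41.3, 3.40 and 48.0 in rli, with rli replicate 2 the lowest of all. The 22 named probe sets of the chromosome 2 insertion had medians of 5.09, 1.68 and 73.6 in wild type and 27.3, 13.7 and 30.7 in rli, the same order of arrays at the extremes as the mitochondrion-encoded ones.

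Of 74 listed loci for nuclear subunits of complexes I, III and IV, cytochrome c and the ATP synthase, 47 were tested, of which 2 rose and 1 fell, against 4.27% and 2.53% of all tested probe sets. Their median difference was -0.20, with 34 lower and 13 higher in rli, and -0.29 without wild-type replicate 3. Their median SD between wild-type arrays was 0.21, against 0.98 in the 12 tested mitochondrion-encoded probe sets. Most of the nuclear subunits were brighter than those 12, and the spreads were not compared at matched intensity.

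In complex I, AT2G33220, which encodes a subunit related to human GRIM-19, read 42.4, 46.0 and 56.5 in wild type and 280.1, 359 and 307 in rli. It rose by 2.71 ± 0.21 (limma adjusted p = 0.000102) and passed in every alternative that tested it. The other 22 tested subunits of complex I did not pass and lay between -0.51 and 0.37. In complex III, AT3G10860, a small subunit of the cytochrome bc1 complex, rose by 0.82 ± 0.18 (adjusted p = 0.024), from 794 to 920 in wild type to 1443 to 1655 in rli. In the ATP synthase, AT1G51650, the epsilon subunit, fell by 0.95 ± 0.23 on the log2 scale (-0.95; adjusted p = 0.037), from 1269, 1350 and 2102 in wild type to 806, 836 and 746 in rli. Among 7 tested nuclear subunits of complex IV, 0 passed, where 4.27% of all tested probe sets rose and 2.53% fell. Of the 7, 0 had an unadjusted limma p below 0.05, against 21.1% of all tested probe sets. AT2G47380 stood at -0.48 ± 0.22 and AT3G62400 at -0.43 ± 0.20. In complex II, which has nuclear subunits in this list, SDH2-1 stood at -0.34 ± 0.17 and SDH2-2 at -0.53 ± 0.25. Of its list 0 of 3 passed, beside the same shares of all tested probe sets.

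**Figure D4:**
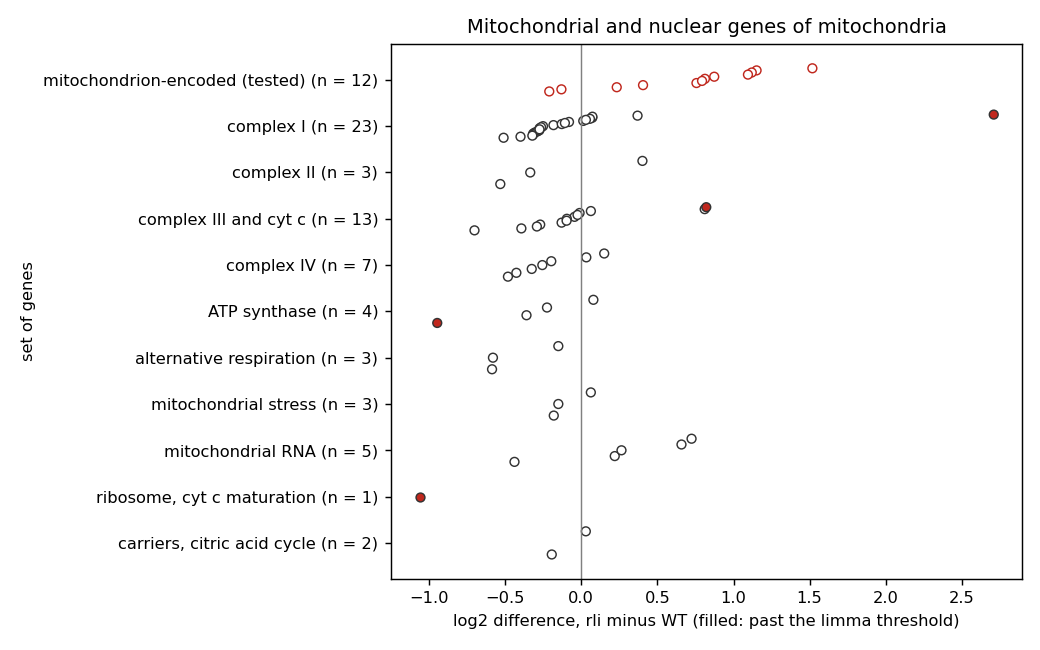
Log2 differences, rli minus wild type, of the 12 tested mitochondrion-encoded probe sets (top) and of the tested nuclear genes of mitochondria by list, 1 point per probe set, filled where the limma test was passed. The 12 points at the top reach from -0.21 to 1.52 with 0 filled, and AT2G33220 of complex I stands at 2.71.

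Nuclear genes that act on mitochondrial RNA or respond to the organelle were few on the named part of the array. Of 34 loci of mitochondrial transcription, splicing, editing and decay 5 were tested and 0 passed, where 4.27% of all tested probe sets rose and 2.53% fell. Of the 5, 2 had an unadjusted limma p below 0.05, against 21.1% of all tested probe sets. AT5G46920, the maturase nMAT2 of intron splicing, stood at 0.72 ± 0.28 (limma adjusted p = 0.177) and AT5G54580, the RNA recognition protein ORRM2 of editing, at -0.44 ± 0.18 (0.206). Of the alternative respiratory enzymes, the external NAD(P)H dehydrogenases NDB1 and NDB2 stood at -0.59 ± 0.24 and -0.15 ± 0.24, and NDC1 at -0.58 ± 0.30. Of these 0 of 3 passed, beside the same shares of all tested probe sets. When wild-type replicate 3 was left out, limma's adjusted p was 0.035 for NDB1, 0.043 for NDC1 and 0.046 for ORRM2, which were lower in rli. AT5G25450 of complex III then also passed, with a rise (1.22, limma adjusted p = 0.019). So did AT3G27240 of complex III (-0.67, 0.018) and AT4G02580 of complex I (-0.53, 0.0499). In that setting 3 of the 63 tested loci of all lists rose and 7 fell, where 8.72% of all tested probe sets rose and 6.56% fell. In the mitochondrial stress list 0 of 3 passed over all 6 arrays, where 4.27% of all tested probe sets rose and 2.53% fell. There 0 of the 3 had an unadjusted limma p below 0.05, against 21.1% of all tested probe sets, and AT2G21640 stood at -0.18 ± 0.43. HLL (AT1G17560), a protein of the mitochondrial ribosome and the 1 tested member of its list, fell by 1.06 ± 0.25 on the log2 scale (-1.06; adjusted p = 0.036), from 122, 120 and 182 in wild type to 69.7, 52.9 and 79.5 in rli. Of the enzymes and carriers, GLDH, the last enzyme of ascorbate synthesis, stood at -0.19 ± 0.23 and the isocitrate dehydrogenase subunit IDH-V at 0.03 ± 0.21. The calls of AT3G10860, AT1G51650 and HLL were lost without any 1 of the arrays other than wild-type replicate 3, with highest adjusted p-values over their alternatives of 0.232, 0.157 and 0.123. These calls were also lost without the intensity trend, where 1 gene of the lists, AT2G33220, still passed.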

How the data were processed

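The deposited values are linear intensity values, which the authors computed with the tools that the submitters' processing notes name, MAS5 and GCOS. Versions and genome build are not given in the sources used here. They were moved to the log2 scale without further normalization, and detection calls were not used. The 64 control probe sets were left out. Groups and replicate numbers came from the titles. Probe sets were named through the platform's gene table, and RefSeq positions served only to order the 7 named mitochondrial genes. Genotype was the single term of the limma 3.58.1 model (R 4.3.3). Moderated tests used a variance trend on mean level, were two-sided and were adjusted by Benjamini-Hochberg over every tested probe set, at a threshold of 0.05. Of several probe sets of a nuclear locus, that with the highest mean was used. The number of arrays, 3 per group, limits the precision of every value.

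The members and gene lists were chosen with earlier results of these data known. By rule, readings on every array are given for the mitochondrion-encoded probe sets past the threshold, otherwise for the 2 with the largest difference in each role group, and for the highest and lowest mean; those of the others were chosen after their values were seen. Named were also, of each nuclear list, the members past the threshold or the 2 with the smallest p. No such rule picked nad9, nad6, cox1, cox2 or the nad1 probe sets, which were a side comparison chosen with the values known. Alternatives were other normalizations, filters, an offset of 2.45, a floor of 9.34, other variance settings, array weights, the replicate block and each array left out. The fit was tested on simulated arrays with the residual spread of these data, in which 200 of 13648 probe sets were changed. It recovered 0% of them at a log2 difference of 1, 70.5% at 2 and 90% at 3. In the reported fit 6.80% of tested probe sets passed, a larger share than was changed in the simulation. AT3G10860 passed there at 0.82, so the simulated rates do not carry over to that fit. Nor were they measured at the spread of the mitochondrion-encoded probe sets. The standard errors of the 12 tested ones were 0.27 to 1.05, so a count of 0 passing does not show that differences of about 1 are absent.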

Additional observations from a re-analysis of the deposited data

How the results depend on the processing

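Of the 12 tested mitochondrion-encoded probe sets 0 passed in the reported fit, and 0 passed in 15 of 18 other settings. With array weights 8 rose and with the replicate block 2 (244906_at and nad4), while leaving out each array gave 0 to 6, the 6 without wild-type replicate 3. Without a filter and without that array 8 of 31 rose. The median of the 31, 0.76, stayed above 0 in every setting, from 0.14 with the floor to 1.58 without wild-type replicate 3, and leaving out each array gave 0.16 to 1.58. It is taken from plain means, so array weights, the replicate block and the variance settings could not move it. The SD of the array medians within groups was 1.29, larger than this median. Without wild-type replicate 1 or 2, 19 of the 31 were higher in rli and 12 lower. The cause of these shifts was not tested. The numbers were not shown to pair the samples, since deviations of same-numbered arrays correlated at -0.09, 0.33 and 0.32. Signs turned for ccb382 (0.068 with array weights; -0.47 to 0.11 with each array left out), 244923_s_at (0.37; -0.56 to 0.33), AT2G07776 (-0.054 after quantile normalization; -0.20 to 1.53) and orfX (-0.31 to 0.84). Of all tested probe sets 6.80% changed in the reported fit, 2.43% after median centring and 3.33% without a filter. The share was 4.34% without the intensity trend, 23.3% with array weights and 2.85% to 15.3% with each array left out. Of the nuclear genes of the lists 4 of 63 tested changed, but 2 after median centring and 2 without a filter. They were 1 without the intensity trend, 12 with array weights and 1 to 10 with each array left out. Signs turned there for AT2G21640 (0.22 with array weights; -0.52 to 0.27), IDH-V (-0.045 after median centring, -0.16 with array weights; -0.15 to 0.12) and NDB2 (-0.27 to 0.058). The 19 probe sets below the filter have readings with no detection call.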
